A study of Mus musculus with 4 samples.

Results

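Promoters of long intergenic non-coding RNAs (lincRNAs) that lie away from the TSSs of protein-coding transcripts were examined in mouse embryonic stem (mES) cells for acetylation of histone H3 at lysine 9 (H3K9ac) and lysine 14 (H3K14ac). The GENCODE annotation of the mm9 genome (version M1) lists 1232 lincRNA genes on chromosomes 1 to 19. A lincRNA TSS was kept when more than 5 kb separated it from the TSS of every protein-coding transcript, with 1 TSS per gene at its 5′-most end. This left 502 of the 22650 lincRNA and protein-coding TSSs, whereas the other 730 lincRNA TSSs lay within 5 kb of a coding TSS. The rule uses the annotation and no tag count. It keeps TSSs away from the starts of coding transcripts and not from coding genes as such, since 164 of the 502 TSSs lie inside the body of a coding gene and 33 lie within 5 kb of the start of a non-coding transcript of a coding gene.

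The 4 libraries come from untreated mES cells, labelled as line E14 of strain 129P2/OlaHsd. They are ChIP with antibody ab4441 against H3K9ac, ChIP for H3K14ac with the monoclonal antibodies 13HH3-1A5 and 7G8 in separate libraries, and input DNA without antibody. The study's methods name no line, and speak of wild type ES cells isolated from blastocysts and passaged off their feeder cells before use. Whether both describe the same line is not stated. There is 1 library per antibody and no replicate. No difference was therefore tested between conditions, and every interval given here covers the counting of tags or the sampling of TSSs and not the variation between cultures or ChIPs.

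LincRNAs are spliced and polyadenylated transcripts of genes that do not overlap the coding exons of a protein. Some act in the nucleus on chromatin or on neighbouring genes, some serve as precursors of small nucleolar RNAs (snoRNAs) or microRNAs, and for many no function is known. Acetylation of lysines 9 and 14 of histone H3 is placed by histone acetyltransferases and is found on nucleosomes next to active promoters and enhancers. Many mammalian promoters are rich in unmethylated CpG dinucleotides, whereas CpG-poor promoters are more often those of genes restricted to particular cell types.

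The libraries held 23183487 (H3K9ac), 22365676 (13HH3), 23839094 (7G8) and 19313927 (input) mapped reads, here called tags, and each value counts the tags within 2 kb of a TSS. Counts were scaled to 10000000 tags in each library, and log2 over input is the log2 ratio of these densities after adding 1 to each. A window was called when its log2 over input was at least 1 and the exact 95% interval of the ratio lay above 0 on the log2 scale. The windows of the 502 TSSs had a median of 37 input tags (range 0 to 106), and 14 of them had fewer than 5. Among coding genes that define ES cells, Zfp42 had a log2 over input of 3.98 for H3K9ac, Sox2 3.39, Pou5f1 2.46 and Nanog 1.92, whereas Esrrb stood at 0.01. Of these 5, only Zfp42 and Sox2 were called with 13HH3 or 7G8. Every coding gene was likewise counted at 1 TSS, its 5′-most, so starts more than 2 kb inside a gene were not measured. The fibroblast genes Col1a1, Col1a2, Thy1, Pdgfrb and Postn had H3K9ac between 0.15 and 0.98 and none was called in any library. Acetylation of a promoter is not a measurement of RNA, and RNA was not analysed here.

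The promoter sequences that carry the main contrasts are given below, from 250 bases before to 50 bases after the TSS, in the direction of transcription on the mm9 genome, with every CpG in capitals. Gm11974, today named Snhg15, and 2410006H16Rik had the second and the third highest H3K9ac, and their promoters hold 29 and 31 CpGs.

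Gm11974 (Snhg15), chr11:6428714-6429013, minus strand: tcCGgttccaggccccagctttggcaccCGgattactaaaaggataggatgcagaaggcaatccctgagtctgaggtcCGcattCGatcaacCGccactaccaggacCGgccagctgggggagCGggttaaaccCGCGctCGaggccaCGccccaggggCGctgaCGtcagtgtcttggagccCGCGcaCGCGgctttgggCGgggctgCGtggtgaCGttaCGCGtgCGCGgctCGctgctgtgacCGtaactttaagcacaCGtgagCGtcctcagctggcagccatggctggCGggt
2410006H16Rik, chr11:62416129-62416428, plus strand: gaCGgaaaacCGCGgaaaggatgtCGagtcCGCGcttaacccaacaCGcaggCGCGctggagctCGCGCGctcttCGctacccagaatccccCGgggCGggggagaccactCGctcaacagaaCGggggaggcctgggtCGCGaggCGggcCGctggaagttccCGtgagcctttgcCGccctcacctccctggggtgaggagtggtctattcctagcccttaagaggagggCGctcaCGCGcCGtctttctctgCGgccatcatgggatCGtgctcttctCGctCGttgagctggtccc

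Gm12100, the TSS with the highest H3K9ac over input of all, has no CpG in these 300 bases.

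Gm12100, chr11:30650582-30650881, plus strand: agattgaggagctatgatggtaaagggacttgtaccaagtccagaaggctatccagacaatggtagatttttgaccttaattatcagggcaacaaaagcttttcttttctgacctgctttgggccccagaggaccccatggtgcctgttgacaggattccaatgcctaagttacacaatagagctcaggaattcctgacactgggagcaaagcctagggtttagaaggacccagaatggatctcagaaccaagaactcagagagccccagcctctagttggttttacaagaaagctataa

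Gm12575, today named Unc45bos, has the most CpGs within 2 kb (310) but only 8 in its promoter. Its H3K9ac was below input, in a window that was measured only in part.

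Gm12575 (Unc45bos), chr11:82746835-82747134, minus strand: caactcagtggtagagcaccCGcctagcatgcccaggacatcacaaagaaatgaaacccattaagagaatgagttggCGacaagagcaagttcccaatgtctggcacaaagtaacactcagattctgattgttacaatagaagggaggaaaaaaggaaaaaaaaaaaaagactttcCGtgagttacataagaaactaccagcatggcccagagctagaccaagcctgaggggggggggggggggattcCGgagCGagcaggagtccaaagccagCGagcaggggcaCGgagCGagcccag

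A further set was chosen after its values were seen. It shows a snoRNA host gene (Snhg12, 18 CpGs) beside a transcript named for ES cells, Lncenc1, with 4 CpGs at the start and 69 within 2 kb.

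Snhg12, chr4:131864343-131864642, plus strand: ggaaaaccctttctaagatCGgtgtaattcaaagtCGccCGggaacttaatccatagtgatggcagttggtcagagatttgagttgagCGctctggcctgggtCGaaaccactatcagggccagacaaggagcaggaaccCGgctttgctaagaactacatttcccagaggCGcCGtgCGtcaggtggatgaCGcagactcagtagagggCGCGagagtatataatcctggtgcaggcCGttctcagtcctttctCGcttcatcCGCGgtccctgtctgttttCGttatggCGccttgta
Gm11019 (Lncenc1), chr13:98204675-98204974, plus strand: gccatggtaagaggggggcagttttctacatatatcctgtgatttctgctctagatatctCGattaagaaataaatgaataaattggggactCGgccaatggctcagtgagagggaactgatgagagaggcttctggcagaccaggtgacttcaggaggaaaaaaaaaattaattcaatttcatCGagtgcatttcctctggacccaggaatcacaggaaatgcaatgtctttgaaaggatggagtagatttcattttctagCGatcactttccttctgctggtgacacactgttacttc

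H3K9ac was called over input at a large share of the lincRNA promoters, and H3K14ac at fewer. The antibodies can differ in efficiency, so shares called at 1 threshold do not compare how often the marks themselves occur. H3K9ac was called at 222 of the 502 TSSs (44.2%, exact binomial 95% interval 39.8 to 48.7), beside 55.2% of 21418 protein-coding TSSs and 3.99% of 499284 genome tiles of 4 kb that lie more than 5 kb from any annotated TSS. H3K14ac was called at 73 TSSs with 13HH3 (14.5%, 11.6 to 17.9) and at 69 with 7G8 (13.7%, 10.9 to 17.1). The share of coding TSSs was 14.6% with 13HH3 and 14.9% with 7G8, and that of tiles 2.7% and 2.79%. Thus, pooled over all CpG numbers, the H3K14ac share of the lincRNA promoters was close to that of coding promoters, while the H3K9ac share was lower. The sets differ in CpG number, with a median of 59 and 86, and neither statement holds in each CpG range given below. The coding shares were computed for this window alone. The median log2 over input was 0.88 for H3K9ac, 0.35 for 13HH3 and 0.21 for 7G8.

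The level varied widely among the 502 promoters. H3K9ac reached a log2 over input of at least 2 at 76 called TSSs and of at least 3 at 18, whereas 13HH3 reached 2 at 7 TSSs and 7G8 at 3. The interval of the H3K9ac ratio lay above 0 at 305 TSSs, included 0 at 177 and lay below 0 at 20. For 13HH3 these numbers were 178, 294 and 30, and for 7G8 134, 320 and 48. These counts are given for the members alone. The upper quartile of log2 over input for H3K9ac was 1.65 at lincRNA TSSs, 2.12 at coding TSSs and 0.08 at tiles. In the same order it was 0.74, 0.75 and 0.27 for 13HH3, and 0.65, 0.76 and 0.37 for 7G8. The lowest called value of H3K9ac was 1.01 and the highest uncalled one 0.99, so the threshold cut through a continuous range. Each library was also scaled by the median of the genome tiles instead of its total. The tile medians of -0.37 for H3K9ac, -0.08 for 13HH3 and 0.03 for 7G8 on the log2 scale are then subtracted. With this scaling 59% of the lincRNA TSSs lay above the same threshold for H3K9ac. Coding TSSs and tiles were not counted again with it, so 59% does not compare with their shares above.

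Of the 12 lincRNA promoters with the highest H3K9ac, 8 belong to genes that hold a snoRNA gene. By the lower bound of the H3K9ac interval the highest was Gm12100, which is not among these 8, a gene of 2 exons whose TSS lies 20894 bp from that of Psme4, a proteasome activator gene. It had 277 H3K9ac tags, 147 tags of 13HH3, 141 of 7G8 and 8 of input, which gave a log2 over input of 4.55 (95% interval 3.85 to 6.08), 3.75 (3.02 to 5.28) and 3.55 (2.82 to 5.08). It ranked first over input in all 3 ChIP libraries although its window holds only 16 CpGs, and the small number of input tags makes its interval wide. All 3 ratios share these 8 input tags, beside a median of 31 in its CpG range, so the 3 ranks are not independent. By the number of tags it was not first in any ChIP library, since Snhg15 had 548, 261 and 179. The tags of all 3 ChIP libraries were densest not at the TSS but about 750 bp upstream, where 500 bp held 87 tags of H3K9ac, 53 of 13HH3 and 46 of 7G8 beside 1 of input.

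Snhg15, which holds a snoRNA gene, came next. It had 548 H3K9ac tags, 261 of 13HH3, 179 of 7G8 and 25 of input, with a log2 over input of 4.09 (3.61 to 4.83), 3.13 (2.63 to 3.88) and 2.45 (1.93 to 3.2). 2410006H16Rik, which holds Snord49a, Snord49b and Snord65, had the most H3K9ac tags of all windows, 608, with 241 of 13HH3, 142 of 7G8 and 39 of input (log2 3.63, 2.41 and 1.51). Gm2885, a transcript of unknown function, had 454, 173, 157 and 31 tags in the same order and a log2 over input of 3.53 for H3K9ac. All 3 promoters were called in each ChIP library, and they lie in the group with the most CpGs.

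The other 8 of the 12 highest by H3K9ac were 2410004N09Rik (today Epb41l4aos), 5430416N02Rik, Snhg4, Snhg5, Snhg12, 9430008C03Rik (today Snhg17), Gm11019 (today Lncenc1) and Snhg7. Their log2 over input ran from 3.12 at Snhg7 to 3.55 at 2410004N09Rik for H3K9ac, and their intervals overlap, so that the order among them is not resolved. Snhg5 had 358 H3K9ac tags but only 65 of 13HH3, 106 of 7G8 and 28 of input, which made its 13HH3 value (1.00, 0.39 to 1.75) the lowest of the 12. Gm16197, today Trp53cor1 (lincRNA-p21, a p53 target), entered the 6 highest by 13HH3 with 230, 105, 76 and 18 tags and a log2 over input of 3.28, 2.26 and 1.67. Its TSS lies 12018 bp from that of Cdkn1a, the cell cycle inhibitor p21.

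**Figure D1:**
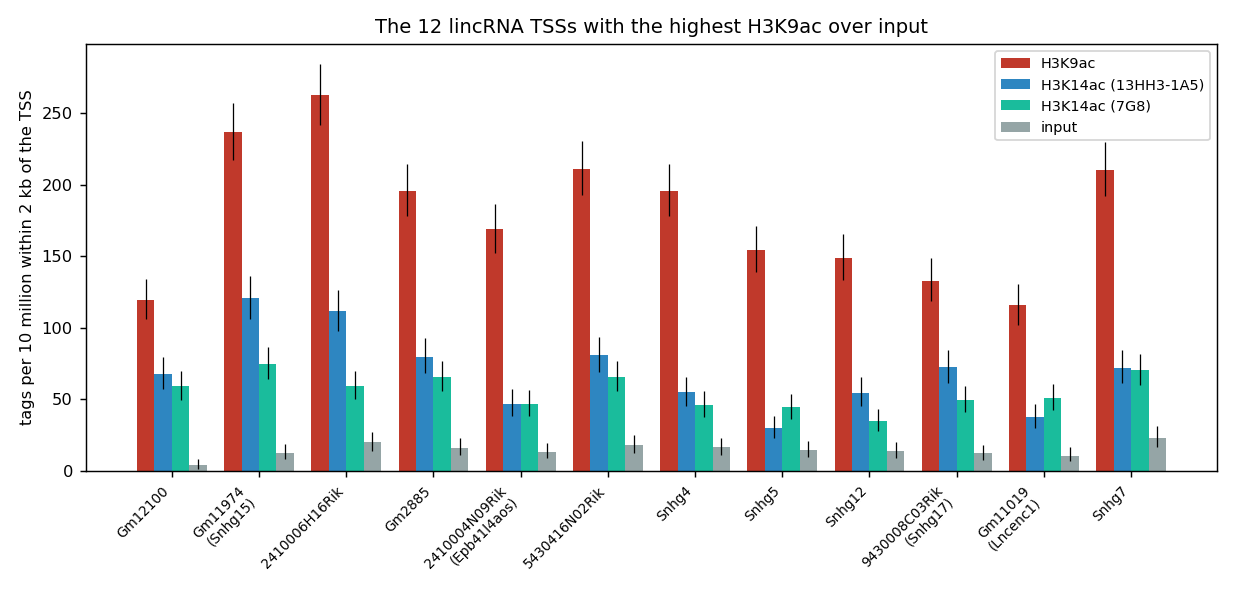
Tags per 10000000 within 2 kb of the TSS (y axis) at the 12 lincRNA TSSs with the highest lower bound of H3K9ac over input, in the H3K9ac, 13HH3, 7G8 and input libraries; lines are exact 95% Poisson intervals of the tag number, and there is 1 library per bar. At every one of the 12 the input bar is the lowest, and the Gm12100 input bar rests on 8 tags.

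When the genes that hold an annotated snoRNA gene on the same strand within their body were pooled, a grouping made after the values were seen, all 12 of 12 were called for H3K9ac, beside 44.2% of all 502. Their median log2 over input was 3.32 (range 1.01 to 4.09), against 0.88 over the 502, and 8 of 12 were called with 13HH3 and 8 of 12 with 7G8, beside 14.5% and 13.7% of all 502. The 8 highest were Snhg15, 2410006H16Rik, Epb41l4aos, Snhg4, Snhg5, Snhg12, Snhg17 and Snhg7, from 4.09 down to 3.12. The remaining 4 were lower in every ChIP library. 2700038G22Rik had 137 H3K9ac tags and 32 of input (1.77), 2900076A07Rik 75 and 30 (1.01), Gm17683 34 and 10 (1.34) and 9430037G07Rik 35 and 11 (1.27). The last 2 are divergent genes whose windows overlap almost entirely, so they are 1 measurement and not 2.

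The snoRNA hosts are also CpG-rich, with a median of 89 CpGs, and 11 of the 12 had 60 or more. Among members with 60 or more CpGs, the 11 with a snoRNA gene had a median log2 over input of 3.32 for H3K9ac and the 237 without one 1.12, of which 56.5% were called. For 13HH3 these medians were 1.67 and 0.44, and for 7G8 1.51 and 0.30. The 11 held a median of 93 CpGs (72 to 115) and the 237 one of 81 (60 to 310), so the sets are not equal in CpG number, and no test was made of a group formed in this way.

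Hosts of microRNAs had lower values than hosts of snoRNAs, a difference that was not tested. Of 21 genes that hold an annotated microRNA gene, also grouped after the values were seen, 10 were called for H3K9ac (47.6%), none with 13HH3 and 1 with 7G8, beside 44.2%, 14.5% and 13.7% of all 502. Their median log2 over input was 0.88, 0.34 and 0.35, against 0.88, 0.35 and 0.21 over the 502, so that for H3K9ac the hosts were close to the members as a whole. Among members with 60 or more CpGs, H3K9ac was called at 9 of the 12 with a microRNA gene (75%, 42.8 to 94.5) and at 57.6% of the 236 without one, with medians of 1.64 and 1.15, and these 12 windows held a median of 129.5 CpGs beside 81. With none of 21 called by 13HH3, the exact binomial interval reaches 16.1%, a share which is above the 14.5% of all members. The highest by H3K9ac were 2610206C17Rik (2.28) and Dleu2 (2.11), the host of the miR-15a and miR-16-1 cluster. A930011O12Rik, today Mir124a-1hg, the host of a neuronal microRNA, had 123 H3K9ac tags, 41 of 13HH3, 63 of 7G8 and 27 of input, and a log2 over input of 1.85, 0.41 and 0.87. Mir9-3hg, host of another neuronal microRNA, stood at 0.25 with 137 CpGs, and Mir155, whose product acts in lymphocytes and macrophages, at -0.40. Thus CpG-rich hosts of neuronal microRNAs lay on either side of the threshold.

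Transcripts named for pluripotency were mostly called in all 3 ChIP libraries, over a wide range of CpG numbers. Platr (pluripotency-associated transcript) genes and Lncenc1 (long non-coding RNA, embryonic stem cells expressed) make up 7 members, a group also picked by name after the values were seen, and 6 of them were called for H3K9ac, 5 with 13HH3 and 6 with 7G8, beside 44.2%, 14.5% and 13.7% of all members. Their windows held 20 to 89 CpGs with a median of 48. The seventh, Platr30, had 1 H3K9ac tag and none in the other libraries, so its window could not be measured. Lncenc1 had 268 H3K9ac tags, 81 of 13HH3, 122 of 7G8 and 21 of input, and its 7G8 value (2.14, 1.56 to 2.98) was the third by lower bound of all members. Platr22 had 329, 85, 104 and 37 tags and Platr4 247, 91, 83 and 27, with H3K9ac at 2.83 and 2.84. Platr7 reached 2.31 with 20 CpGs in the window and Platr14 2.05 with 37. Platr9, with 31 CpGs, had 92 H3K9ac tags and 103 of 13HH3 over 34 of input (1.13 and 1.39).

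The distribution of tags differed among these genes. At Lncenc1 H3K9ac had 22 to 41 tags in each 500 bp from 2 kb upstream to 2 kb downstream and few beyond 3 kb upstream, and the densest 500 bp lay 4550 bp downstream of the TSS. At Platr4 there was a maximum of 66 tags in the first 500 bp downstream and another of 61 tags in the 500 bp centred 2750 bp upstream. At Platr7 the densest 500 bp of H3K9ac was centred 350 bp upstream of the TSS.

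From a list of established non-coding RNA names 8 were members, and their promoters ran from no enrichment to strong acetylation. Snhg12 (above) and C330002G04Rik (2.85, with 282, 79, 105 and 31 tags) were called in all 3 ChIP libraries, as was Pvt1, which lies 50565 bp from Myc. Pvt1 had 318 H3K9ac tags, 191 of 13HH3, 150 of 7G8 and 57 of input, and its log2 over input was 2.18 (1.81 to 2.65), 1.55 (1.15 to 2.03) and 1.07 (0.64 to 1.56). Its H3K9ac extended downstream, with 57 to 64 tags in each 500 bp of the first 2 kb of the gene and at most 39 in any 500 bp upstream.

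Meg3, the maternally expressed RNA of an imprinted cluster, showed H3K9ac without H3K14ac above the threshold. It had 131 H3K9ac tags, 35 of 13HH3, 54 of 7G8 and 32 of input, which gave 1.71 (1.20 to 2.38), -0.03 (-0.77 to 0.70) and 0.43 (-0.21 to 1.13). Mirg, from the same cluster, was at -0.25 for H3K9ac, and Airn, added after its values were seen, the imprinted antisense RNA of Igf2r, at 0.99 (0.54 to 1.51), just under the threshold. The alleles cannot be told apart in these counts.

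Other named lincRNAs lay on either side of the threshold. Rmst, a regulator of neurogenesis, had 26 H3K9ac tags, 26 of 13HH3, 29 of 7G8 and 27 of input (-0.29, -0.20 and -0.19), so no enrichment was detectable at this depth. Miat stood at 0.38 with 144 CpGs, Dlx1as, added after its values were seen, at 0.56 and Sox2ot at 0.75 (0.02 to 1.63) from 44 H3K9ac and 21 input tags. Dleu2 was called for H3K9ac and not for H3K14ac. So were 2810011L19Rik (today Tunar, a transcript of pluripotent and neural cells) at 1.94 and 1700020I14Rik (today Oip5os1) at 2.17, both added after their values were seen. Gm14005, today Morrbid, added in the same way and known from short-lived myeloid cells, was called with every antibody, at 2.02, 1.29 and 1.13. Malat1, Neat1, H19, Snhg3, Mir17hg and Dlx6os1 are not of the lincRNA type in this annotation, and Gas5, Tug1, Rian, Snhg1 and Six3os1 lie within 5 kb of a coding TSS, so none of them is a member.

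**Figure D2:**
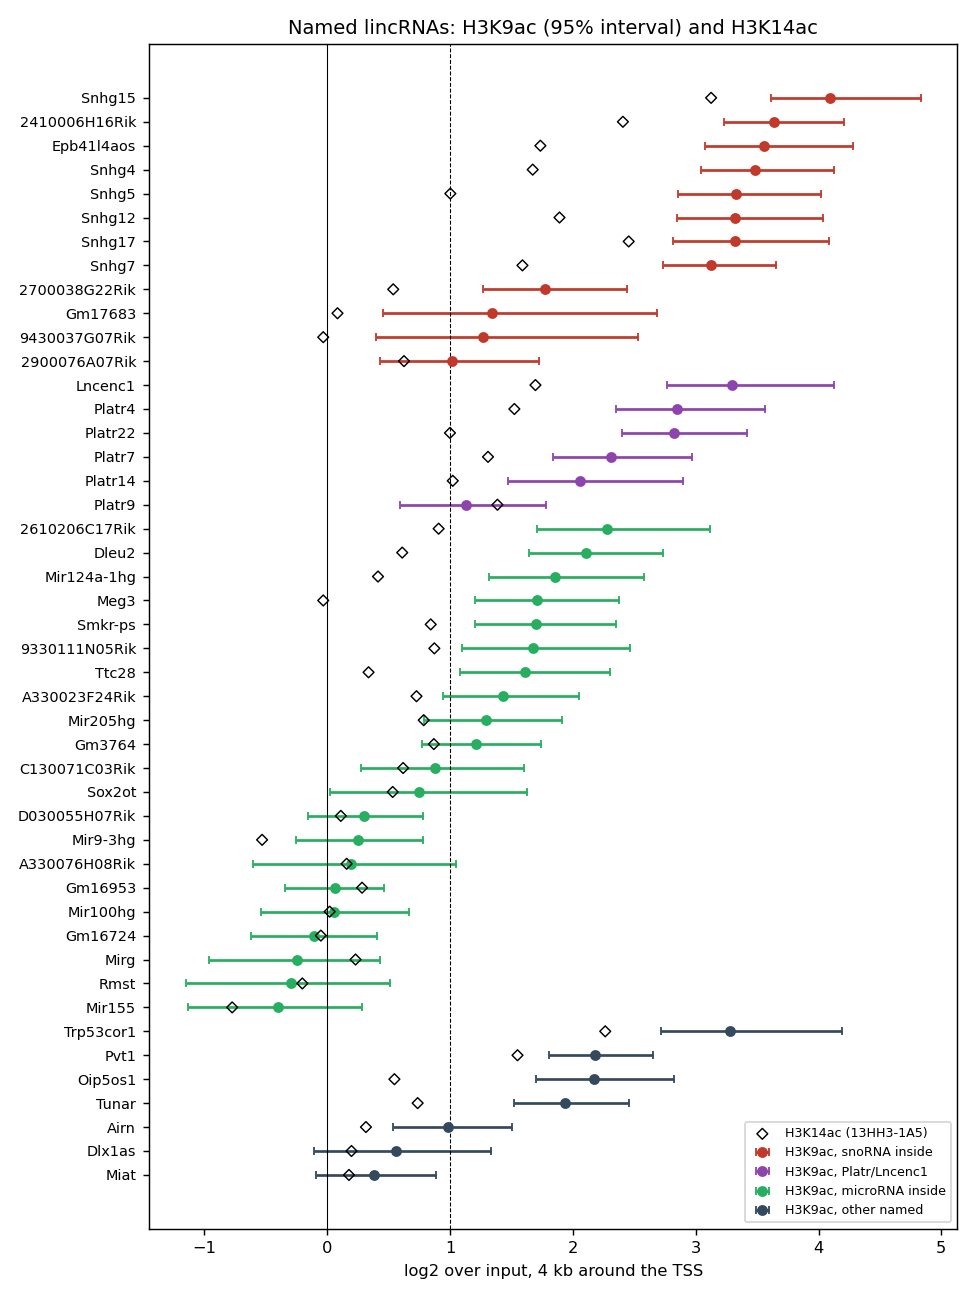
H3K9ac as log2 over input within 2 kb of the TSS (x axis, filled points with exact 95% intervals of counting error) and H3K14ac with 13HH3 (open diamonds) at lincRNA genes that hold a snoRNA gene, at Platr genes and Lncenc1, at genes that hold a microRNA gene, and at other named lincRNAs; the dashed line is a log2 of 1 and Platr30, without input tags, is left out. The 12 snoRNA hosts all sit right of the dashed line, from 1.01 to 4.09, whereas the 21 microRNA hosts run from -0.40 to 2.28.

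H3K9ac followed the number of CpGs, more weakly than at coding genes. The members had a median of 59 CpGs within 2 kb of the TSS (range 10 to 310), and were split at their quartiles. H3K9ac was called at 23.4% of the 128 TSSs with 10 to 41 CpGs, 37.3% of the 126 with 42 to 59, 48.4% of the 124 with 60 to 81 and 68.5% of the 124 with 82 to 310. Coding TSSs and tiles were split at the same CpG numbers, with all windows of up to 41 CpGs in the first group and all of 82 or more in the last. The shares were 4.28%, 22.9%, 53.6% and 85.4% at coding TSSs, and 2.60%, 7.29%, 11.6% and 18% at tiles. The lincRNA promoters thus began higher and ended lower than the coding ones, and crossed them between 42 and 81 CpGs. Their median log2 over input was 0.48, 0.61, 0.95 and 1.43 over the 4 groups, against -0.30, 0.22, 1.10 and 1.94 at coding TSSs. The Spearman rank correlation of CpG number with log2 over input was 0.37 over the 502 lincRNA TSSs and 0.70 over the 21418 coding TSSs, as a description of sites that share their libraries, depth and base composition.

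Both ends differ in composition between the sets. LincRNA TSSs in the first group had a median of 32 CpGs (10 to 41) and coding ones 23 (4 to 41). In the last group the medians were 104.5 (82 to 310) and 126 (82 to 430), so the shares there are not at equal CpG number. With 60 to 81 CpGs the medians were 70 and 71, and the shares called 48.4% and 53.6%. At the CpG-poor end, narrower ranges, set after the values were seen, gave a difference in the same direction, but did not match the sets fully. The median CpG number of lincRNA and coding TSSs was 24 and 19 with 10 to 30 CpGs, and 37 and 36 with 31 to 41. H3K9ac was called at 11 of 54 lincRNA TSSs with 10 to 30 CpGs (20.4%, 10.6 to 33.5) and at 79 of 3393 coding TSSs (2.33%, 1.85 to 2.89). With 31 to 41 CpGs it was called at 19 of 74 (25.7%, 16.2 to 37.2) and at 140 of 1555 (9.0%, 7.63 to 10.5). The binomial intervals of lincRNA and coding promoters did not overlap in either range, and they describe the sampling of sites and not a test over samples.

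**Figure D3:**
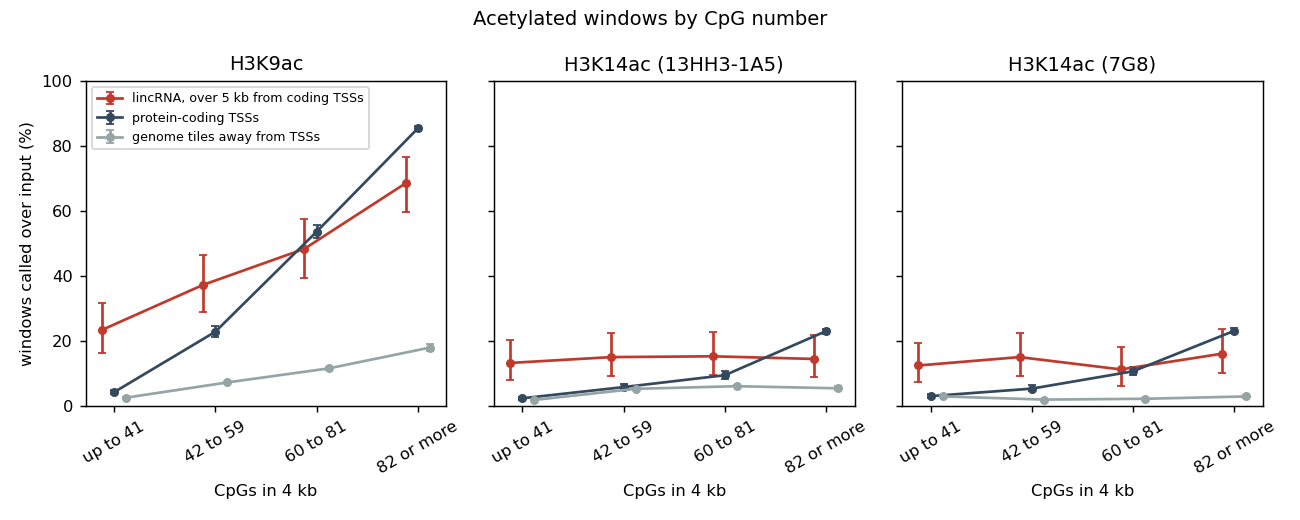
Share of windows called over input (y axis, %) against the number of CpGs within 2 kb (x axis, 4 ranges split at the quartiles of the lincRNA TSSs) for H3K9ac, 13HH3 and 7G8, at the 502 lincRNA TSSs, at protein-coding TSSs and at genome tiles of 4 kb away from TSSs; lines are exact binomial 95% intervals. For H3K9ac the lincRNA share rises from 23.4% to 68.5% and the coding share from 4.28% to 85.4%, whereas the H3K14ac shares of lincRNA TSSs stay between 11.3% and 16.1%.

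**Figure D4:**
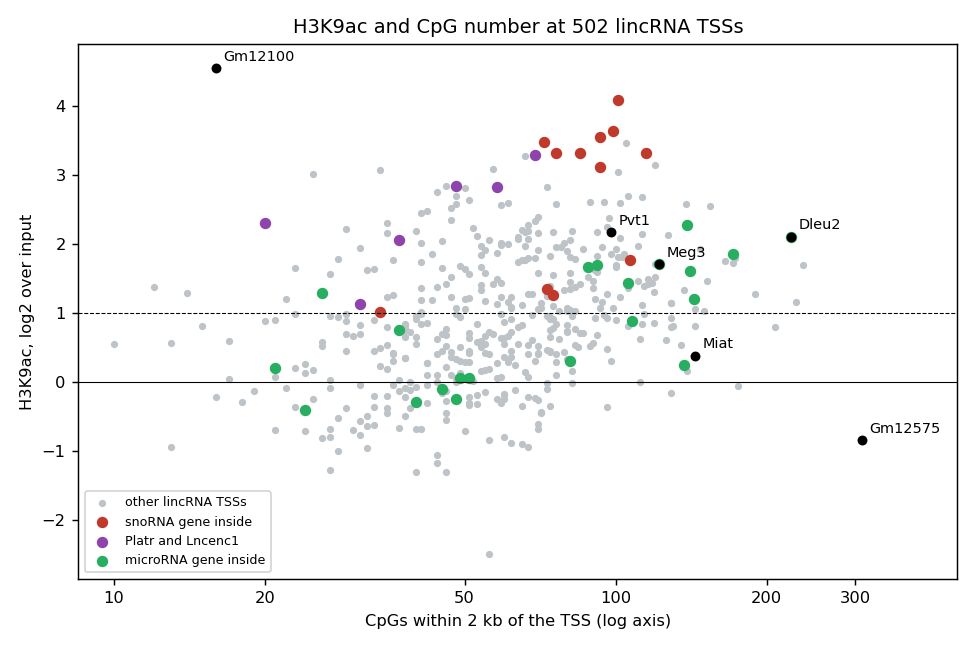
H3K9ac as log2 over input (y axis) against CpGs within 2 kb of the TSS (x axis, log scale), 1 point per lincRNA TSS; genes that hold a snoRNA or microRNA gene, Platr genes and Lncenc1, and single genes named in the text are marked, and the dashed line is a log2 of 1. Gm12100 with 16 CpGs lies at the top left (4.55) and Gm12575 with 310 CpGs at the bottom right (-0.85), both far from the main trend. Part of the Gm12575 window was barely measured, and the Gm12100 value rests on 8 input tags.

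H3K14ac showed no such rise in the share called. With 13HH3 the shares were 13.3%, 15.1%, 15.3% and 14.5% from the fewest to the most CpGs, and with 7G8 12.5%, 15.1%, 11.3% and 16.1%. At coding TSSs they rose from 2.41% to 23.1% and from 3.07% to 23.2%. The median log2 over input of the lincRNA promoters did rise, from 0.08 to 0.56 for 13HH3 and from 0.07 to 0.40 for 7G8, but stayed under the threshold. The rank correlation with CpG number was 0.22 for 13HH3 and 0.15 for 7G8, beside 0.48 and 0.33 at coding TSSs and 0.22 and -0.21 at tiles. At the lincRNA TSSs it depended on the window, with 0.28 for 13HH3 and 0.23 for 7G8 at 1 kb on each side, and 0.12 and 0.01 at 5 kb.

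Single promoters departed from this relation. Gm12575 had 17 H3K9ac tags, 50 of 13HH3, 36 of 7G8 and 27 of input in the window with the most CpGs, and a log2 over input of -0.85 (-1.90 to -0.00), 0.69 and 0.10. Part of this window was barely measured. The 500 bp centred 750 and 1250 bp downstream of the TSS held 0 tags of H3K9ac, 7G8 and input, and 2 and 5 of 13HH3. The TSS of Gm12575 lies inside the coding gene Unc45b, a chaperone of muscle myosin, 220 bp from the start of one of its non-coding transcripts. A430072P03Rik, with 236 CpGs, had 141, 117, 78 and 35 tags and was called for H3K9ac (1.69) and 13HH3 (1.53). Gm17494, with 229 CpGs, was called for H3K9ac only (1.17), and 9530036O11Rik, with 208 CpGs and 8827 bp from Shh, was at 0.80. Besides Gm12575, the lowest of the CpG-rich group were 5033428I22Rik, today Hdnr, 11135 bp from the heart regulator gene Hand2 (-0.36, from 37 H3K9ac and 40 input tags), and Gm16977 (-0.16, from 64 and 60 tags). In the range of 42 to 59 CpGs the highest was Gm8378, with 252 H3K9ac tags over 23 of input (3.09).

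A CpG island-like stretch of at least 200 bp within 500 bp of the TSS was found at 235 members. Of these 61.7% were called for H3K9ac, as were 28.8% of the other 267, while 13HH3 was called at 16.6% and 12.7% and 7G8 at 15.3% and 12.4%. Of the promoter elements searched in the 300 bases around the TSS on both strands, the GC box (GGGCGG) was found at 25.5% of lincRNA and 43.7% of coding promoters, the TATA box (TATAAA) at 12.9% and 13.5%, the CCAAT box (CCAAT) at 36.1% and 37.6%, the octamer (ATGCAAAT) at 1.8% and 1.7% and the E box (CACGTG) at 8.8% and 7.8%. The GC box contains a CpG and its share rose from 5.5% to 54.0% across the 4 CpG ranges of the lincRNA promoters, whereas the TATA box fell from 22.7% in the first to 9.7% in the last. Promoters called for H3K9ac held a GC box in 35.1% of cases and those not called in 17.9%, beside 64.1% and 18.6% at coding TSSs. For the octamer the lincRNA shares were 3.6% and 0.36%, from 8 and 1 promoters, beside 1.4% and 2.1% at coding TSSs. At lincRNA promoters the TATA box stood at 10.4% and 15%, CCAAT at 38.3% and 34.3% and the E box at 10.4% and 7.5%. None of these differences was tested. Among the promoters printed above, Snhg15 and 2410006H16Rik hold the GC box, and Gm12100, Lncenc1 and Gm12575 hold CCAAT. A match describes these letters and is not evidence of binding.

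The ratio of H3K14ac to H3K9ac at the same promoters was compared between sets of windows. Antibodies can differ in efficiency, so the sign of a ratio carries no meaning by itself. Where 1 antibody gives lower folds over input, the ratio also falls as windows become more acetylated. A difference in the ratio between windows is therefore not by itself a difference between the marks. The median log2 ratio of 13HH3 over H3K9ac was -0.57 at the lincRNA TSSs, -0.86 at coding TSSs and 0.25 at genome tiles, and that of 7G8 over H3K9ac was -0.76, -1.01 and 0.39 in the same order. The ratio fell with CpG number, from -0.37 to -0.90 for 13HH3 and from -0.31 to -1.05 for 7G8 over the 4 ranges. At coding TSSs it fell further, from 0.17 to -1.38 for 13HH3 and from 0.37 to -1.40 for 7G8. The lincRNA promoters therefore had the lower ratio of the 2 sets at up to 41 CpGs and the higher one at 82 or more, with either antibody, and the pooled medians do not hold for each range. The median H3K9ac log2 over input at lincRNA and coding TSSs was 0.48 and -0.30 in the first of these ranges. In the last it was 1.43 and 1.94. In both ranges the set with more H3K9ac had the lower ratio, and whether the balance of the marks differs was not tested.

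Ranking promoters by the ratio of 13HH3 over H3K9ac picks windows with few H3K9ac tags. The first, Gm17392, had no H3K9ac tag and 10, 8 and 9 tags of 13HH3, 7G8 and input. No library had a tag there from 5 kb upstream to 1 kb downstream, so its promoter itself could not be measured and its counts come from 1 to 2 kb downstream. Gm12575 (above) had a ratio of 1.53 (0.84 to 2.54), and part of its window held tags of 13HH3 alone. 8030451A03Rik, inside the gene of tenascin C (Tnc), had 22, 51, 62 and 37 tags, and Gm17243, inside Svep1, 22, 48, 36 and 37. At all 4 H3K9ac lay below input, and at none was 13HH3 itself called over input.

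The mean profiles had a maximum near the TSS in the CpG-rich group. With 82 to 310 CpGs, H3K9ac rose to 6.09-fold over input at 350 bp downstream of the TSS and 4.66-fold at 350 bp upstream, with 4.39-fold at 50 bp upstream, and fell to 1.18-fold at 4950 bp upstream and 1.88-fold at 4950 bp downstream. Without the 5 members with most tags, the downstream maximum was 5.36-fold. For 13HH3 the maximum was 3.10-fold, at 150 bp downstream (2.71-fold without 5 members), and for 7G8 2.14-fold, at 350 bp downstream (1.87-fold). With 10 to 41 CpGs the H3K9ac profile was low, with 2.55-fold at 250 bp downstream and 2.33-fold at 350 bp upstream. At the edges it was 1.36-fold at 4950 bp upstream and 2.59-fold at 4950 bp downstream of the TSS, each in 1 bin of 100 bp. Leaving out the 5 members with most tags within 2 kb left 2.25-fold near the TSS and 2.55-fold at the downstream edge. These 5 were picked by tags near the TSS, so this step cannot show whether a few members raise the downstream edge.

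**Figure D5:**
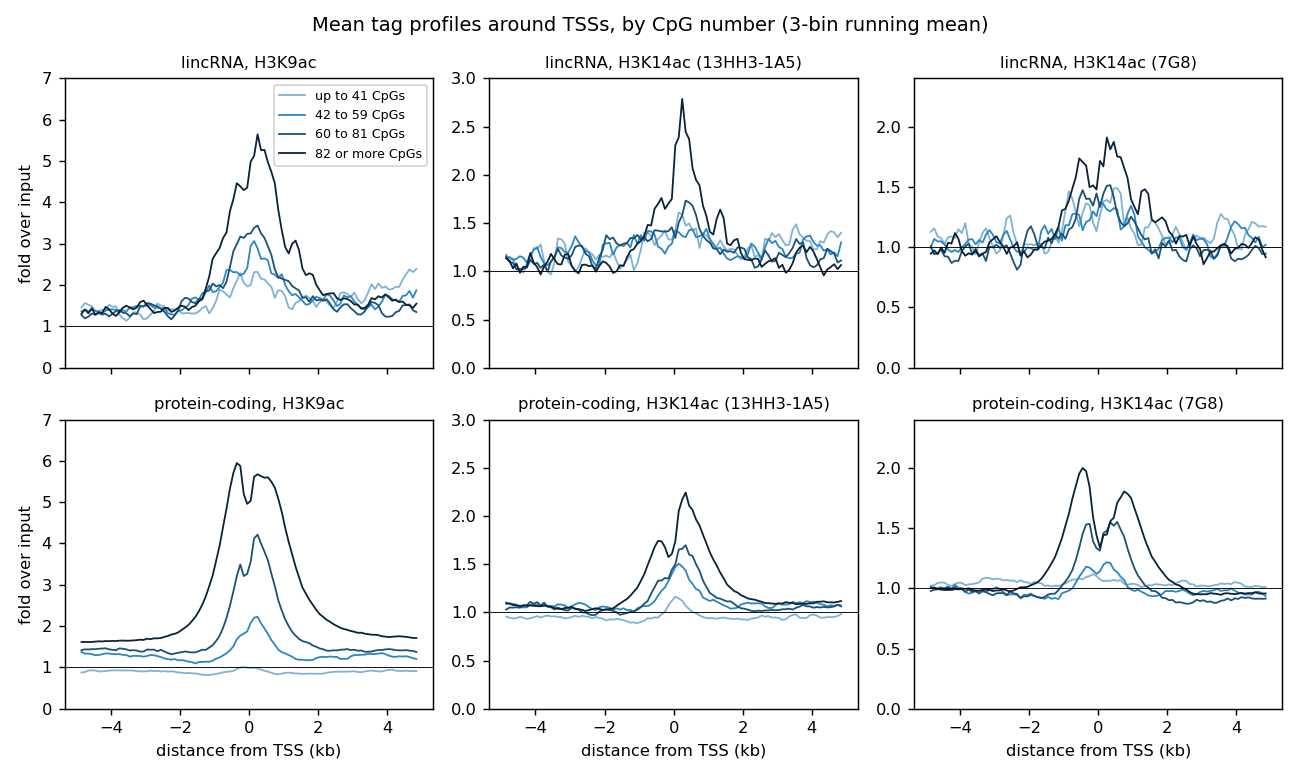
Fold over input (y axis) of H3K9ac, 13HH3 and 7G8 against the distance from the TSS (x axis, kb, downstream to the right) for lincRNA (top) and protein-coding TSSs (bottom), split by CpG number within 2 kb; lines join sums of tags in bins of 100 bp, smoothed over 3 bins, so that they run slightly below the maxima in the text. The lincRNA profiles with most CpGs are higher on the downstream side of the TSS in all 3 libraries, and the profile with fewest CpGs rises again towards 4950 bp downstream for H3K9ac.

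The densest 500 bp of H3K9ac within 5 kb lay within 1 kb of the TSS at 160 of the 222 called members (72.1%), with 94 downstream and 66 upstream, and more than 2 kb away at 35 (15.8%). At called coding TSSs these shares were 82.9% and 7.99%. For 13HH3 the densest 500 bp lay within 1 kb at 39 of 73 called members (53.4%, beside 77.0% of called coding TSSs), and for 7G8 at 41 of 69 (59.4%, beside 72.7%). Lncenc1, with its densest stretch 4550 bp downstream and outside the counted window, is among those with a distant maximum.

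TSSs inside a coding gene were called less often than those outside, and their windows held more input tags. H3K9ac was called at 47 of the 164 TSSs inside a coding gene body (28.7%, 21.9 to 36.2) and at 175 of the 338 outside (51.8%, 46.3 to 57.2), with a median of 53.5 and 62 CpGs. For 13HH3 the shares were 7.32% and 18%, and for 7G8 6.10% and 17.5%. The median number of tags inside and outside was 77.5 and 97.5 for H3K9ac, 54.5 and 56 for 13HH3, 49 and 59.5 for 7G8, and 41 and 35 for input. With 82 to 310 CpGs, 9 of 20 inside (45%) and 76 of 104 outside (73.1%) were called for H3K9ac, whereas with 10 to 41 CpGs the shares were 23.1% of 52 and 23.7% of 76. In the CpG-rich windows the median number of tags was nearly the same inside and outside for H3K9ac (125 and 131) and 13HH3 (61.5 and 63.5), and 59 and 67.5 for 7G8, whereas input had 53.5 and 36.5, so that the lower ratios inside went with more input. The part of input in the contrast was not tested further. This split was made after the values were seen, and whether the contrast differs between these ranges was not tested. Inside coding genes, none of the 20 CpG-rich TSSs was called for H3K14ac with either antibody, which allows a share of up to 16.8%, whereas 18 and 20 of the 104 outside were. Distance to the nearest coding TSS (median 28757.5 bp, from 5057 to 1720620 bp) had a rank correlation of -0.01 with H3K9ac, 0.08 with 13HH3 and 0.14 with 7G8. Of members 5 to 10 kb away 41.8% were called for H3K9ac, 42% at 10 to 30 kb, 50% at 30 to 100 kb and 36.5% beyond 100 kb. In the same order the shares were 6.12%, 15.9%, 17.4% and 15.9% for 13HH3, and 8.16%, 11.5%, 16.8% and 19% for 7G8, and the binomial intervals of the first and the last share overlapped with both antibodies. LincRNA TSSs within 5 kb of a coding TSS, whose windows can hold the coding promoter, were called for H3K9ac at 79.9%. They also held more CpGs, with a median of 120 beside 59 at the members. Of these 730, 574 had 82 or more CpGs and were called at 85.9%, beside 68.5% of the members in that range.

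Members that match a RefSeq lncRNA were called more often for H3K9ac than those without a match, and they also hold more CpGs. By symbol or synonym, 248 members matched a RefSeq gene of a later mouse assembly, of which 215 are classed as lncRNA and 16 as protein-coding today. Of the 215, 54.0% were called for H3K9ac, as were 8 of the 16 and 36.2% of the 254 without a match. The median number of CpGs was 70 over the 215 and 51 over the 254, and its part in the difference was not tested. None of the 16 was called with 13HH3 or 7G8, but the upper limit of that share, 20.6%, is above the 14.5% and 13.7% of all members. Genes of up to 2 exons and those with more were called at 42.4% and 45.8%. In all, 17 members shared part of their window with another member, and counting 1 member for each of the 493 groups of overlapping windows gave 43.4% called for H3K9ac.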

How the data were processed

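ChIP-seq and input DNA of mES cells were analysed from 4 files, 1 per library. Single-end 36-base reads had been mapped by the authors to mm9 using ELAND with 1 mismatch allowed, and the deposited lines give chromosome, start, end and strand per read, beside a constant score of 1 that holds no measurement. The version of ELAND is not given in the sources used here. Repeats of a position and strand occur only in the 13HH3 file (738711 tags, 3.30%), and 1 tag per position and strand was kept in each library. Tag 5′ ends were moved by 100 bp towards the fragment centre, and counted in windows reaching 2 kb to either side of the TSS. After this, 21626227 (13HH3) to 23837354 (7G8) ChIP tags and 19313142 input tags on chromosomes 1 to 19, X and Y set the scale. The pseudocount was 1 on the scale of 10000000 tags. Intervals of ratios are exact (Clopper-Pearson on both tag counts) and cover counting error only. Genome sequence and annotation were NCBIM37 and GENCODE M1. CpG island-like stretches had a GC share of at least 0.5 and an observed over expected CpG ratio of at least 0.6. No test was possible with 1 library per antibody.

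Named genes are, among members with at least 5 input tags, the 12 highest by lower bound for H3K9ac and 6 for each H3K14ac library. They include the highest of each CpG range, the 5 with most CpGs, the 3 lowest of the CpG-rich range and the 4 highest by 13HH3 over H3K9ac. Without this minimum, the members of a list of known lincRNAs were named. The snoRNA and microRNA hosts, Platr genes and Lncenc1, and genes marked as added were named after the values were seen, also without it. The members and lists were chosen with earlier results of these data known. The intervals of ratios were tested on simulated counts. Calculations used scipy 1.17.1, numpy 2.4.6 and pandas 2.3.3 under Python 3.11.15. Alternatives were tried for the window, pseudocount, scaling, repeated tags, tag shift, input minimum, distance, TSS and threshold.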

Additional observations from a re-analysis of the deposited data

Results flagged for a closer look

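Chromosome X was outside the comparisons above, and 24 lincRNA TSSs there lie more than 5 kb from a coding TSS. Of these 24, 12 were called over input for H3K9ac, 2 for H3K14ac with 13HH3 and 5 with 7G8, which is 50% (exact binomial 95% interval 29.1 to 70.9), 8.33% (1.03 to 27) and 20.8% (7.13 to 42.2). These intervals include the shares of the 502 autosomal members, 44.2%, 14.5% and 13.7%. They are given here because they are signal in windows that the report does not use. Each antibody has 1 library, so no group was searched for samples that stand apart.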

How the results depend on the processing

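The number of called promoters, the median of the CpG-rich range and the rank correlation with CpG number were recomputed for each ChIP library under up to 15 settings (the call thresholds bear on the numbers called alone, and repeated tags on 13HH3 alone), of which 2 were added after seeing the data (without genes that RefSeq lists as coding, and without TSSs inside coding genes). Of 117 recomputed values 99 stayed within 1.5 times the reported number called, or inside the 95% interval of the reported median or correlation, 18 lay outside, and 0 changed sign. Windows of 1 kb on each side gave medians of 1.74 (H3K9ac), 0.72 (13HH3) and 0.53 (7G8), a rank correlation of 0.463 for H3K9ac and 104 called with 7G8. Windows of 5 kb gave medians of 0.88, 0.28 and 0.16, a rank correlation of 0.237, 0.122 and 0.0106, and 43 called with 13HH3 and 27 with 7G8. Requiring a log2 of at least 2 left 76, 7 and 3 called. Members over 20 kb from coding TSSs numbered 304, of which 136 were called for H3K9ac, 44.7%, so that the number fell with the members while the share was close to 44.2%. Scaling by genome tiles raised the H3K9ac median to 1.80 and the number called from 222 to 296. Aside from the fold rule, the share called ran from 32.1% to 59% for H3K9ac, from 8.57% to 20.3% for 13HH3 and from 5.38% to 20.7% for 7G8, so the order of 13HH3 and 7G8 is not resolved. Beyond the window and member settings, whose construction changes the counted bases or genes, the cause was not tested. No paired analysis was possible because each group has only 1 library. With a median of 37 input tags, a window near a log2 of 1 cannot be placed on either side with confidence, and windows with few input tags, such as that of Gm12100, have wide intervals.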
